A study of Mus musculus with 14 samples.

Results

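Heat shock proteins, the CCT chaperonin and the folding factors of the endoplasmic reticulum (ER) were examined in livers of wild-type (WT) and LRH-1 K289R mice. A gene belonged to this chaperone set when its platform symbol began with Hspa to Hsph or Hsp and a digit, with Dnaja, Dnajb or Dnajc, with Cct and a digit from 2 to 8, or with Pdia and a digit, or was Calr, Canx, Hyou1 or Sdf2l1. The rule used names and no measured value, but the set was chosen with earlier results of these data known. It found 85 of the 19237 named genes. Of these, 20 encode proteins of the ER, 46 of the cytosol or nucleus and 6 of mitochondria, and 13 were placed in a remaining class. Hspg2, which encodes the basement membrane proteoglycan perlecan, met the rule by its symbol although it is not a chaperone. Hsp90ab1, Hspa1b, Hspe1, Pdia4, Dnajc14, Dnajc30, Dnajb8 and Hspb2 had no probe set carrying their symbol alone and were not analysed here.

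One group held 7 mice with unaltered LRH-1, and the other held 7 mice with the K289R substitution, in which an arginine replaces a lysine of this nuclear receptor. LRH-1 is encoded by Nr5a2 and controls bile acid and cholesterol genes in hepatocytes, and the exchanged lysine is a site to which the small protein SUMO is attached. Both groups were 17 to 19 weeks old, were fed ad libitum, and were killed at 7 am, and total liver RNA of each mouse was hybridised to an Affymetrix whole-transcript array. The labels call the arrays biological replicates and say nothing of strain, sex or hybridisation batch. The comparison asks how the substitution alters the hepatic levels of chaperone transcripts.

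Chaperones bind unfolded proteins and help them reach their final shape. HSP70 proteins do this in cycles of ATP hydrolysis that J proteins start and nucleotide exchange factors such as the HSP110 proteins reset, HSP90 acts on nearly folded clients, and the ring-shaped CCT complex encloses actin and tubulin. The ER has its own set, with the HSP70 BiP, the HSP90 GRP94, the lectins calnexin and calreticulin, and protein disulfide isomerases, which is in heavy use in hepatocytes because these cells secrete most plasma proteins. When unfolded proteins build up, ER chaperone genes are induced by the unfolded protein response through the factors ATF6 and XBP1, and cytosolic ones by heat shock factor 1.

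All values are log2(intensity + 1), a scale on which changes of dim genes are understated. A gene was called when the adjusted p of limma, with Benjamini-Hochberg correction over all 19237 genes, was below 0.05, and differences are given as K289R minus WT with the standard error (SE). Where 3 values are given for a group of 7 arrays, they are its lowest, median and highest. Of all genes, 1610 were higher and 2068 lower in K289R, which is 8.37% and 10.8%, or 19.1% in either direction, and the median difference of all genes was 0.05. The hepatocyte markers measured (10 genes, albumin and apolipoproteins among them) had a mean level of 12.38 to 12.44 on the WT arrays and 12.37 to 12.47 on the K289R arrays. K289R replicates 6 and 7 and WT replicate 6 had the narrowest interquartile ranges of their log2 values (2.60, 2.59 and 2.63, against 2.67 to 2.87 on the other arrays). WT replicate 4 (2.67) and K289R replicate 5 (2.69) followed without a clear gap. Counts, medians and leading genes that move with the narrowest arrays are also given without K289R replicates 6 and 7. In whole liver RNA, fewer cells of a type and less RNA per cell cannot be told apart.

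Chaperone transcripts were lower more often than higher in K289R livers. Of the 85 members, 28 fell, 6 rose and 51 were not called, so that 32.9% fell against a background of 10.8%. Their median difference was -0.14, and 55 members, or 64.7%, had a negative difference, against 37.8% of all genes. At 71 members the mean level was above that of nearly all olfactory receptor genes, which stand for unexpressed genes, and all of the called members were among them. Of the 12191 genes at that level, 15.9% fell and 12.3% rose. The arrays of both genotypes did not overlap for 12 members that were lower and 1 that was higher in K289R. Among all genes, 4.73% were lower and 2.82% higher without overlap. With K289R replicates 6 and 7 left out, 20 members were lower and 7 higher, beside 8.7% and 9.07% of all genes, and the median of the members was -0.09, with 0.01 for all genes.

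**Figure D1:**
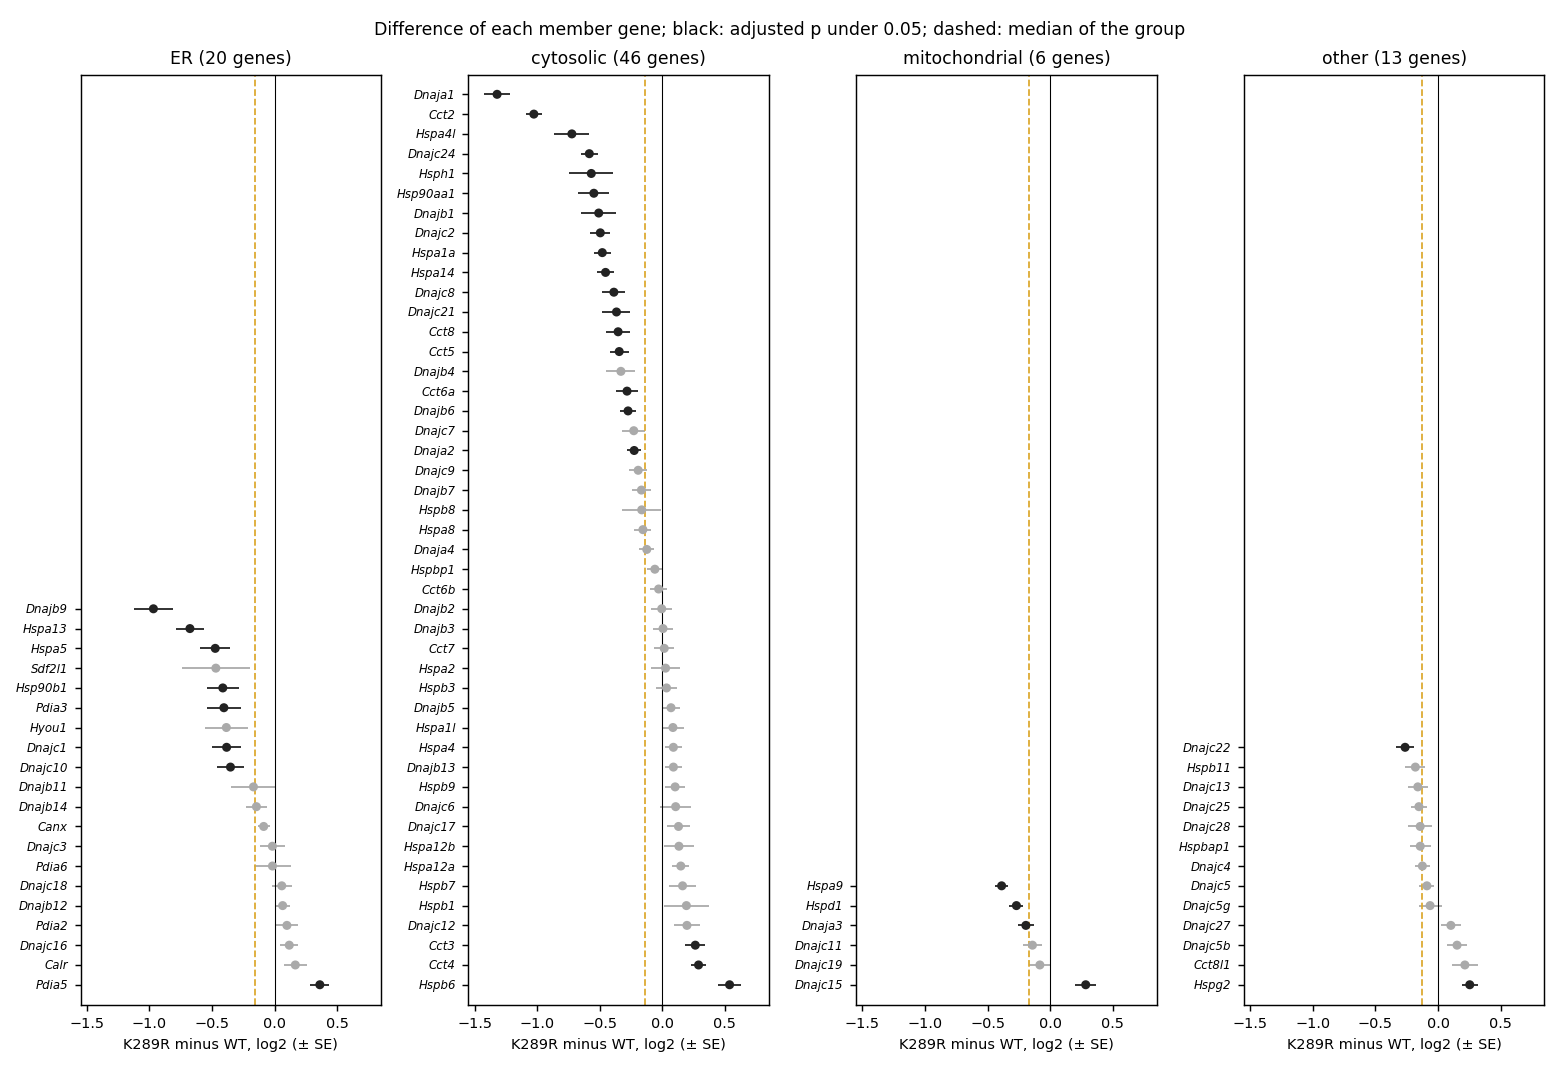
Difference of each of the 85 members between K289R and WT, in log2 units with its SE, by cell compartment. Black points passed the threshold and grey points did not, and the dashed lines give the compartment medians, which lie between -0.17 and -0.12.

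In the ER class, 7 of 20 members fell and 1 rose, and the median difference was -0.16. The 14 members of the ER lumen had a median of -0.37, with 6 lower and 1 higher. Both medians move with single arrays of either genotype. The ER and lumen medians were -0.10 and -0.31 without WT replicate 2, and -0.11 and -0.27 without K289R replicate 6. Without K289R replicate 7 the ER median was -0.08, and without replicates 6 and 7 it was -0.07, while the lumen then had a median of -0.10, with 3 lower and 2 higher. Of the 20 ER members 3 were then lower and 2 higher, beside 8.7% and 9.07% of all genes. With WT replicate 6 left out as well, the ER median was -0.08 and the lumen median -0.21, with 4 lumen members lower and 2 higher. Of all genes, 9.69% were lower and 8.72% higher in that fit. With the interquartile range of each array as a covariate the medians were -0.09 and -0.25, with 6 lumen members lower and 2 higher. All genes then gave 11.7% lower and 12.3% higher. The ER members that fell over all arrays were the HSP70 proteins Hspa5 and Hspa13, the HSP90 protein Hsp90b1, the disulfide isomerase Pdia3, and the J proteins Dnajb9, Dnajc1 and Dnajc10. Pdia5 was the ER member that rose. Calr, Canx, Pdia6 and Dnajc3, which work beside them, were not called.

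Hspa5 encodes BiP, the ER HSP70 that also holds the sensors of the unfolded protein response inactive. Its lowest, median and highest values were 11.42, 11.66 and 12.03 on the WT arrays and 10.73, 11.35 and 11.52 on the K289R arrays. The groups overlapped where WT replicate 6 lay below K289R replicates 4 and 5, and K289R replicates 6 and 7 lay far below the other K289R arrays. The difference was -0.47 (SE 0.12, adjusted p = 0.0079), which places K289R at 72.0% of WT, and the 2-sided exact permutation test over all 3432 assignments of 7 and 7 arrays gave p = 0.00291. Without K289R replicates 6 and 7 the difference was -0.29 (adjusted p = 0.0222).

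Dnajb9 encodes ERdj4, a J protein that directs BiP to misfolded proteins and to the sensor IRE1. Its WT arrays had a lowest, median and highest value of 9.90, 10.23 and 10.45, and its K289R arrays 8.65, 9.10 and 9.90. K289R replicate 4 and WT replicate 6 were level at the edge of the groups. The difference was -0.97 (SE 0.15, adjusted p = 0.000127, exact permutation p = 0.00117), which places K289R at 51.1% of WT. Hspa13, an HSP70-like protein of microsomes, had 8.36, 8.68 and 8.92 in WT and 7.55, 8.06 and 8.23 in K289R. All K289R arrays were below all WT arrays, with a difference of -0.68 (SE 0.11, adjusted p = 0.00017). Both genes passed in each of the alternative fits tried, with differences of -0.77 and -0.54 without K289R replicates 6 and 7.

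Hsp90b1 encodes GRP94, which folds integrins and Toll-like receptors. It measured 10.90, 11.09 and 11.54 (lowest, median and highest) in WT and 10.24, 10.90 and 11.09 in K289R. The groups overlapped between 10.90 and 11.09, and K289R replicates 6 and 7 were the lowest of all. The difference was -0.41 (SE 0.13, adjusted p = 0.0295, exact permutation p = 0.0152). Without K289R replicates 6 and 7 it was -0.21 and was not called (adjusted p = 0.127). Pdia3, the isomerase that serves glycoproteins held by calnexin and calreticulin, went from 10.16, 10.30 and 10.76 in WT to 9.49, 10.11 and 10.35 in K289R. Its difference of -0.41 (SE 0.13, adjusted p = 0.0402) was likewise not called without those arrays (-0.20, adjusted p = 0.191).

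Dnajc1 is a J protein of the ER membrane that binds ribosomes, and Dnajc10 is a lumenal J protein with disulfide reductase activity. They fell by 0.38 (SE 0.11, adjusted p = 0.0205) and 0.35 (SE 0.11, adjusted p = 0.0231), from medians of 6.73 and 6.26 in WT to 6.46 and 6.00 in K289R. Without K289R replicates 6 and 7 their differences were -0.25 and -0.24 and were not called. The count of lower ER members was thus 3 without these arrays, namely Dnajb9, Hspa13 and Hspa5, beside 8.7% of all genes. It was 3 or 4 when WT replicate 3 (3), WT replicate 1 (4), WT replicate 2 (4), K289R replicate 6 (4) or K289R replicate 7 (4) alone was left out. In those fits 1757 to 1855 of the 19237 genes were lower. The ER count was 5 with K289R replicates 6 and 7 and WT replicate 6 left out (9.69% of all genes lower and 8.72% higher), and 7 with the interquartile range of each array as a covariate (11.7% and 12.3%).

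Other ER members were not called in the comparison of all arrays. Hyou1, the nucleotide exchange factor of BiP, had a difference of -0.39 (SE 0.17, adjusted p = 0.139) and Sdf2l1, a component of the BiP complex, one of -0.47 (SE 0.27, adjusted p = 0.261). Their K289R arrays ran from 8.59 to 9.80 and from 7.65 to 9.66, with replicates 6 and 7 at the lower end. Dnajb11, a J protein of the same complex, differed by -0.17 (SE 0.18), Dnajb14 by -0.15, Canx by -0.09, and Dnajc3 and Pdia6 by -0.02 each. Dnajc18, Dnajb12, Pdia2 and Dnajc16 had differences between 0.06 and 0.12, and Pdia2 was the ER member at the level of the olfactory receptors.

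Calr, the gene of the calcium-binding lectin calreticulin, and Pdia5 lay on the other side. Pdia5, a disulfide isomerase, had 8.43, 8.74 and 8.90 in WT and 8.89, 9.09 and 9.25 in K289R, with a difference of 0.36 (SE 0.08, adjusted p = 0.00192). The lowest K289R array lay slightly below the highest WT array. Calr ran from 10.81 to 11.22 in WT. Of the K289R arrays, 5 lay between 11.28 and 11.44, above all WT arrays, and replicates 6 and 7 at 10.82 and 10.91. Its difference was 0.17 (SE 0.09, adjusted p = 0.23) over all arrays and 0.30 (adjusted p = 0.002) without these 2, where it passed.

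**Figure D2:**
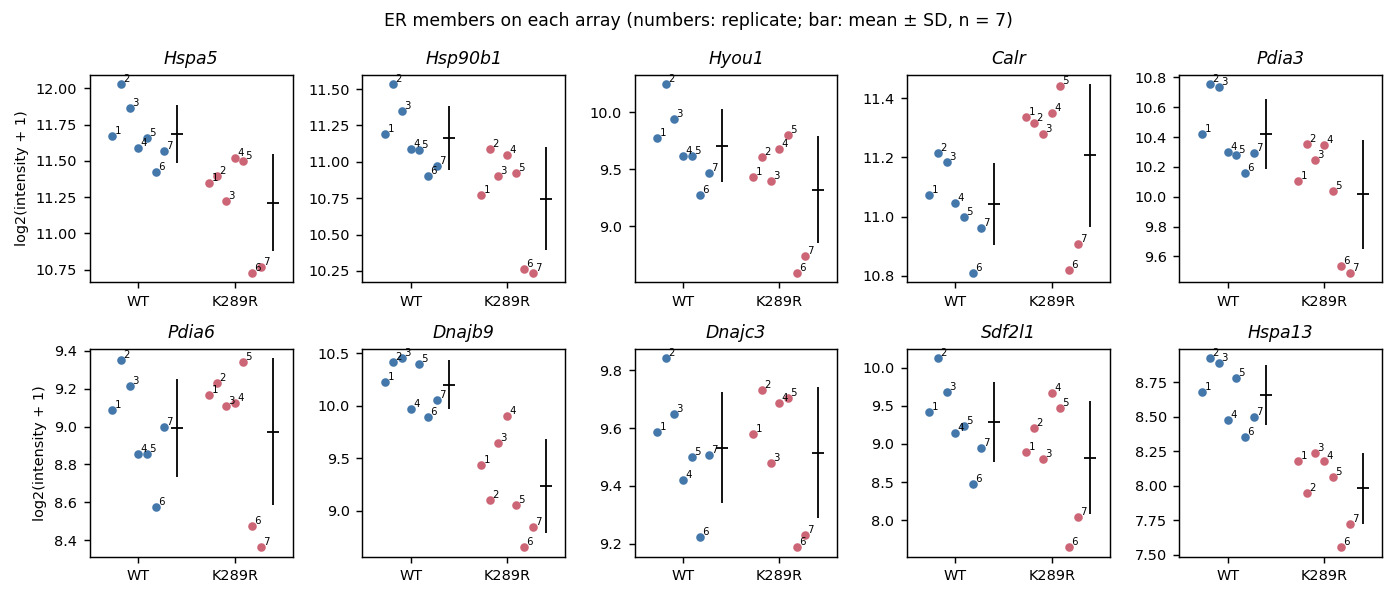
Level of 10 ER members on each array, as log2(intensity + 1), with the replicate number beside each point and the mean ± SD of 7 arrays as a bar. Each axis has its own range. In K289R, replicates 6 and 7 are the lowest for each of these genes, while Hspa13 is lower in K289R on all 7 arrays.

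Part of the ER members moved with Hspa5 between mice of one genotype. After the genotype means were removed, Pearson's r with Hspa5 over the 14 arrays was 0.99 for Hyou1, 0.98 for Sdf2l1, 0.97 for Calr, 0.96 for Dnajc3, 0.96 for Hsp90b1, 0.95 for Pdia6 and 0.91 each for Pdia3 and Dnajb11. The median over the 18 ER members above the olfactory receptor level was 0.86, against 0.22 over 12190 genes, 0.40 over 38 cytosolic and 0.58 over 6 mitochondrial members. An r over 0.8 was found for 10 of the 18 ER members, 4 of the 38 cytosolic members and 428 of the 12190 genes. Those 4 were Dnajb2 (0.96), Hsph1 (0.90), Dnaja1 (0.86) and Hsp90aa1 (0.803). In the ER, Dnajb9 had 0.73, Pdia5 0.55 and Dnajc16 0.45, while Canx (0.18), Dnajc18 (0.17) and Dnajb12 (-0.01) hardly followed Hspa5. The genes most like Hspa5 outside the chaperone set were Repin1 (0.97), Sel1l (0.96), Edem1 (0.95) and Creld2 (0.94). These values are descriptions. They rest on the same 14 arrays, to which K289R replicates 6 and 7 contribute a large share of the spread.

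**Figure D3:**
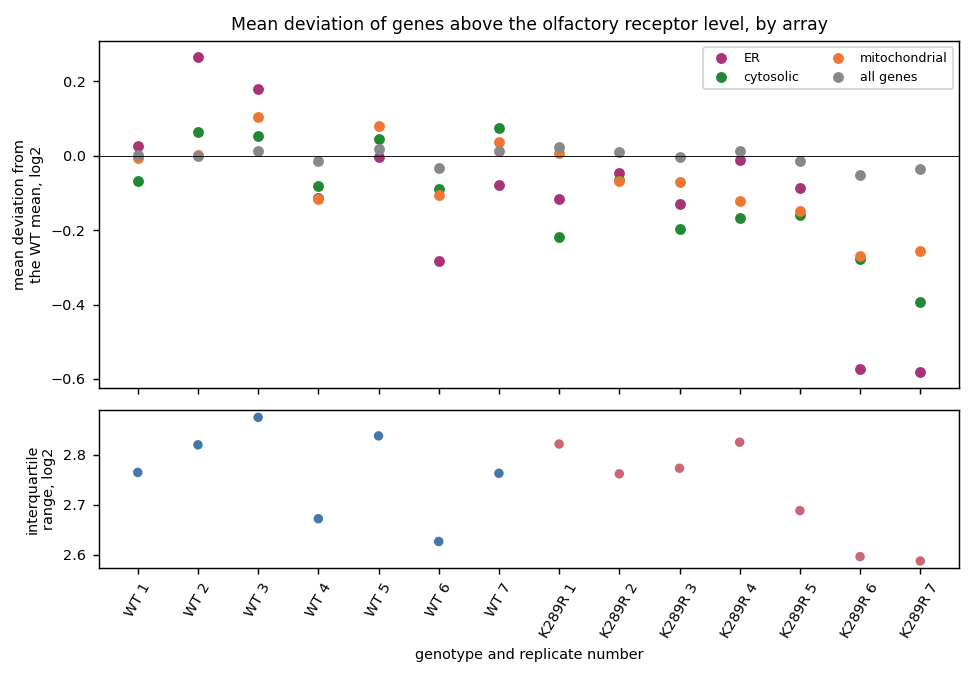
Mean deviation of the members of each compartment from their WT means on each array, in log2 units, for genes above the olfactory receptor level (upper panel), and the interquartile range of the log2 values of all probe sets on the same array (lower panel). The ER mean is -0.57 and -0.58 on K289R replicates 6 and 7 and -0.13 to -0.01 on the other 5 K289R arrays.

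Averaged over the ER members, the deviation from the WT mean ran from -0.28 to 0.27 on the WT arrays, with replicate 6 lowest and replicate 2 highest. On K289R replicates 1 to 5 it lay between -0.13 and -0.01, inside the WT range, and on replicates 6 and 7 at -0.57 and -0.58. The mean of the cytosolic members lay between -0.09 and 0.07 on the WT arrays and between -0.39 and -0.06 on the K289R arrays, and 6 of the 7 K289R arrays were below all WT arrays. The mean over all genes above the olfactory receptor level stayed within -0.05 and 0.02 on every array. The part of array quality in the low ER values of K289R replicates 6 and 7 was not tested.

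Promoters were searched for elements known from ER stress genes. RefSeq promoters (GRCm38.p6, 250 bases before to 50 after each start) were at hand for 72 of the 85 members. The ER stress response element ERSE was searched on both strands as CCAAT and CCACG with any 9 bases between them. It was found in 6 of 17 ER members, in 0 of 41 cytosolic, 0 of 4 mitochondrial and 0 of 10 remaining members, and in 0.119% of 32851 promoters. For this and the elements below, a member counted when any of its promoters matched, while the share of all was counted per promoter. The 7 matches of these 6 genes are shown with 21 bases on each side, on the strand of the gene, with the element in capitals. The element reads in reverse in the second Hsp90b1 match and in Calr.
Hspa5, chr2:34772004-34772064, plus strand: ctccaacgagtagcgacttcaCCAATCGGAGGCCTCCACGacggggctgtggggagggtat
Hsp90b1 first match, chr10:86705617-86705677, minus strand: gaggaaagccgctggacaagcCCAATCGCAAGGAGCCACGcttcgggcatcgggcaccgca
Hsp90b1 second match, chr10:86705512-86705572, minus strand: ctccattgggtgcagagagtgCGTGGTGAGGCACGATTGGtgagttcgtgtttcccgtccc
Canx, chr11:50325779-50325839, minus strand: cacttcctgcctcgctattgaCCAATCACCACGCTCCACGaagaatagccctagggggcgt
Dnajc3, chr14:118937806-118937866, plus strand: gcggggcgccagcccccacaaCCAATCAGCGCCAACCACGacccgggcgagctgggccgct
Pdia6, chr12:17266470-17266530, plus strand: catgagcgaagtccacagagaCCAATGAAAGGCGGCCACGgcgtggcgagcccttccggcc
Calr, chr8:84847054-84847114, minus strand: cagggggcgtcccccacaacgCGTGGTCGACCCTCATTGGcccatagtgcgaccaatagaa
Of these 6 genes, Hspa5 and Hsp90b1 fell, and Canx, Dnajc3, Pdia6 and Calr were not called. Dnajb9, Pdia3, Dnajc1 and Dnajc10 fell and held no match in this window, which says only that these letters were not in it, and Hspa13 had no promoter in the table. The element ERSE-II, ATTGG and CCACG with 1 base between them, was found in Dnajb11, after its start, and in 0.0365% of all promoters. The element UPRE, TGACG followed directly by TGG, was found in Dnajc25 of the remaining class and in 0.676% of all promoters. Both were searched on both strands, and a match is a description that shows no binding.

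In the cytosol and nucleus, 17 of 46 members fell and 3 rose, and the median difference was -0.14. Hsp90aa1, 2 of the 7 cytosolic HSP70 members (Hspa1a and Hspa14), 8 of the 20 cytosolic J proteins and 4 of the 8 Cct genes were among those that fell. These 8 Cct genes included the testis form Cct6b and left out the ring subunit Tcp1, which the naming rule did not cover. Hspb6, Cct3 and Cct4 rose. Without K289R replicates 6 and 7 the cytosolic median was -0.08, Cct6a, Dnajb1, Dnajc21 and Hsph1 were no longer called, and Dnajc9 was called in addition. Hsph1 and Dnajc21 were also lost when WT replicate 2 or 3 or K289R replicate 6 or 7 alone was left out.

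Dnaja1, a J protein that serves HSC70 and HSP90 clients, had the largest difference of the set. It measured 9.62, 9.71 and 9.93 (lowest, median and highest) in WT and 7.93, 8.54 and 8.71 in K289R, and the groups were far apart. The difference was -1.32 (SE 0.10, adjusted p = 1.83e-08). A second, dimmer probe set of the gene fell by 0.59 (SE 0.12, adjusted p = 0.00175), so its size differs between probe sets while the direction does not. Dnajc24, a J protein needed for the diphthamide modification of elongation factor 2, fell by 0.58 (SE 0.07, adjusted p = 4.43e-06) from 7.37, 7.45 and 7.47 to 6.65, 6.90 and 7.04. Dnajc2, a J protein that acts at the ribosome, and Hspa14, its HSP70 partner there, fell by 0.50 (SE 0.08, adjusted p = 0.000144) and 0.45 (SE 0.07, adjusted p = 7.08e-05). For each of these 4 genes all K289R arrays were below all WT arrays.

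The stress-inducible genes of the cytosol included several that fell. Hsp90aa1, the inducible HSP90, measured 9.78, 9.93 and 10.34 in WT and 8.95, 9.47 and 9.96 in K289R, with K289R replicate 2 above the WT median. The difference was -0.55 (SE 0.12, adjusted p = 0.00331), and its 3 probe sets gave -0.52 to -0.61. Hspa1a, an inducible HSP70, had 6.02, 6.15 and 6.24 in WT and 5.47, 5.66 and 5.79 in K289R, without overlap, and fell by 0.48 (SE 0.07, adjusted p = 3.1e-05). Its near-identical copy Hspa1b may share probes with it, which makes the assignment to one of them uncertain.

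Dnajb1, the J protein HSP40, and Hsph1, the HSP110 exchange factor, overlapped between the genotypes. Dnajb1 had 6.97, 7.49 and 7.77 in WT and 6.43, 6.89 and 7.29 in K289R (difference -0.51, SE 0.14, adjusted p = 0.0143). Hsph1 had 7.995, 8.33 and 8.87 in WT and 7.06, 7.75 and 8.38 in K289R (difference -0.57, SE 0.18, adjusted p = 0.0277). In both genes K289R replicates 6 and 7 were the lowest arrays, and without them the differences were -0.34 (adjusted p = 0.0728) and -0.33 (adjusted p = 0.136). Hspa4l, another HSP110 protein, showed no overlap, with 7.10, 7.20 and 7.80 in WT and 5.97, 6.72 and 6.96 in K289R, and fell by 0.72 (SE 0.14, adjusted p = 0.000876).

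Hspa8, the constitutive HSC70, was not called. Its lowest, median and highest values were 11.88, 11.997 and 12.13 in WT and 11.53, 11.86 and 12.09 in K289R, and the difference was -0.16 (SE 0.07, adjusted p = 0.124). One of its 3 probe sets, with -0.20, passed in a fit over all probe sets with 1 symbol (adjusted p = 0.0423), so the call depends on the probe set. Among the small heat shock proteins, which hold unfolded proteins without ATP, Hspb6 rose by 0.54 (SE 0.09, adjusted p = 0.000235), from 7.74, 7.83 and 8.08 in WT to 8.04, 8.50 and 8.65 in K289R. The groups overlapped at 1 array of each genotype, WT replicate 5 and K289R replicate 5. The differences of Hspb1 (0.19, SE 0.18) and Hspb8 (-0.17, SE 0.15) were not called.

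**Figure D4:**
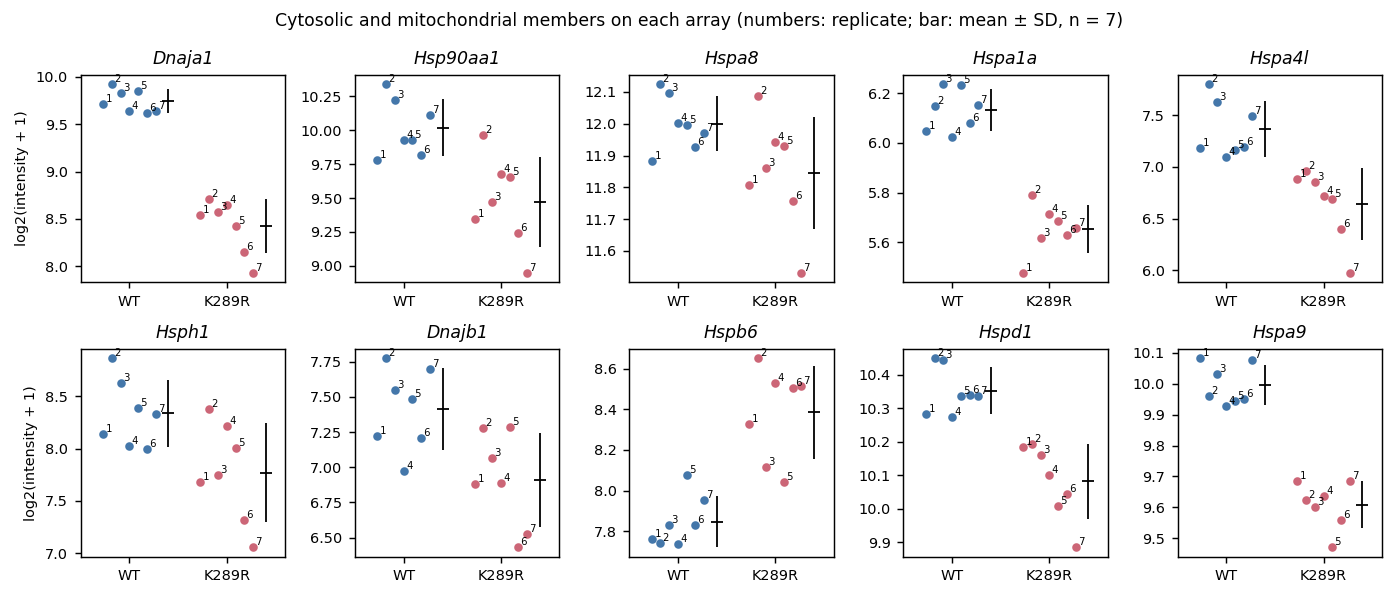
Level of 8 cytosolic and 2 mitochondrial members (Hspd1 and Hspa9) on each array, as log2(intensity + 1), with replicate numbers and the mean ± SD of 7 arrays. Each axis has its own range. Dnaja1, Hspa1a, Hspa4l, Hspd1 and Hspa9 are lower on all K289R arrays than on any WT array.

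The genes of the CCT ring, whose subunits assemble in fixed proportions, did not move in one direction. Cct2 had the smallest p of the set and had 9.23, 9.31 and 9.55 in WT and 8.14, 8.33 and 8.44 in K289R. The groups were separated by a gap wider than the range of either, and the difference was -1.03 (SE 0.06, adjusted p = 8.78e-10). Cct5 fell by 0.34 (SE 0.07, adjusted p = 0.00229), Cct8 by 0.35 (SE 0.10, adjusted p = 0.0119) and Cct6a by 0.28 (SE 0.09, adjusted p = 0.0302). Cct4 rose by 0.29 (SE 0.06, adjusted p = 0.00204) and Cct3 by 0.26 (SE 0.08, adjusted p = 0.0272), and Cct7 had a difference of 0.02 (SE 0.08, adjusted p = 0.916). Cct6b, the testis form of the Cct6a subunit, was at the level of the olfactory receptors and differed by -0.03 (SE 0.07, adjusted p = 0.796). The call of Cct3 was lost when WT replicate 1, 4 or 6 or K289R replicate 1 or 5 was left out, and that of Cct6a when WT replicate 2, 3 or 7 or K289R replicate 4 or 6 was. Tcp1, the first subunit of the ring, which the naming rule did not include, fell by 0.58 (SE 0.10, adjusted p = 0.000288), from a median of 8.86 to 8.30.

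**Figure D5:**
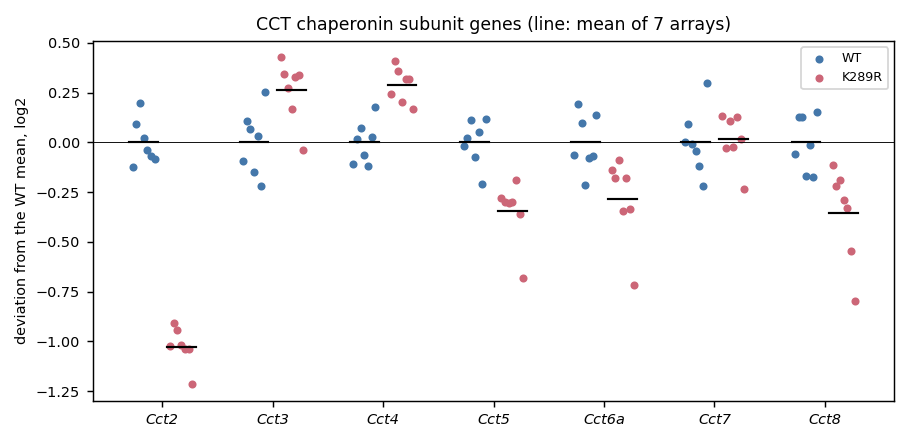
Deviation of the CCT chaperonin subunit genes from their WT means on each array, in log2 units, with the mean of 7 arrays as a line. Cct2 has a difference of -1.03 without overlap, Cct5, Cct6a and Cct8 have differences of -0.28 to -0.35, and Cct3 and Cct4 differ by 0.26 and 0.29.

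In mitochondria, Hspa9, the matrix HSP70 mortalin that pulls proteins across the inner membrane, and Hspd1, the chaperonin HSP60, fell without overlap. Hspa9 measured 9.93, 9.96 and 10.08 in WT and 9.47, 9.62 and 9.69 in K289R (difference -0.39, SE 0.05, adjusted p = 1.79e-05). Hspd1 measured 10.27, 10.34 and 10.45 in WT and 9.88, 10.10 and 10.19 in K289R (difference -0.27, SE 0.06, adjusted p = 0.00171), and its second probe set gave -0.28. Dnaja3, a J protein of mortalin, fell by 0.19 (SE 0.06, adjusted p = 0.0411), a call lost in 10 of the 14 fits that left out 1 array. Dnajc15, a J protein of the import motor, rose by 0.28 (SE 0.08, adjusted p = 0.0216). Dnajc11 and Dnajc19 were not called, although a second, dimmer probe set of Dnajc19 fell by 0.32 (SE 0.09, adjusted p = 0.014), so that its call depends on the probe set. In the remaining class, Dnajc22 fell by 0.26 (SE 0.07, adjusted p = 0.0118) and Hspg2 rose by 0.25 (SE 0.06, adjusted p = 0.00611), both without overlap.

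The heat shock element, searched on both strands as GAA, TTC and GAA or TTC, GAA and TTC with 2 bases between the triplets, was found in 0.603% of all promoters and in 2 cytosolic members and 1 mitochondrial member. The match of Dnajb6, which fell by 0.27, and the first match of Hspd1, which overlaps another, are shown with the element in capitals on the strand of the gene.
Dnajb6, chr5:29735831-29735885, plus strand: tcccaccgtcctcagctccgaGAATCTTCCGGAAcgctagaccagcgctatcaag
Hspd1, chr1:55088043-55088097, minus strand: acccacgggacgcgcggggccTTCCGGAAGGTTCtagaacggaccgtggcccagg
The third gene, Hsph1, held the element after its start. Dnaja1, Hspa1a and Dnajb1 held no match in the window, and Hsp90aa1 had no promoter in the table.

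Replicates 1 to 4 and 5 to 7 of each genotype were also treated as sets of arrays. The labels do not name these sets, which were taken from earlier results of these same data. Tests between them are therefore descriptions and no independent evidence of a batch. Between these sets, 30 genes (0.156%) differed in WT, no member among them, and 83 genes (0.431%) in K289R, with Pdia3 (adjusted p = 0.0496) and Hspa2 (adjusted p = 0.0436) among them. With the 4 sets as random blocks, 18 members were lower and 4 higher, beside 7.3% and 4.01% of all genes. Dnajb9, Hspa13 and Hspa5 passed among the lower ER members, and Hsp90b1 (adjusted p = 0.0855), Pdia3 (adjusted p = 0.0934), Dnajc1 and Dnajc10 did not. In the cytosol, 13 fell and 2 rose. With the set as an added term instead, common to both genotypes, 30 members were lower and 6 higher, beside 2264 and 1855 of the 19237 genes. All 7 lower ER members passed in that fit, with an adjusted p of 0.00364 for Hsp90b1 and 0.00305 for Pdia3. The calls of these genes thus depend on how the sets enter the fit. With replicates 1 to 4 alone 18 members were lower and 7 higher, beside 7.16% and 6.92% of all genes, and with replicates 5 to 7 alone 20 were lower and 1 higher, beside 7.27% and 1.89%. Within replicates 1 to 4 the difference of Hspa5 was -0.42 and within replicates 5 to 7 it was -0.55, and those of Hsp90b1 were -0.34 and -0.51. No member passed a test of the interaction of genotype and set, which 22 genes, or 0.114% of all, did.

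Other genes of the same pathways were counted from lists, chosen with earlier results of these data known. Beside these counts, 10.8% of all genes fell and 8.37% rose. Above the olfactory receptor level, 15.9% fell and 12.3% rose. Without K289R replicates 6 and 7 the shares of all genes were 8.7% and 9.07%, and with the sets as random blocks 7.3% and 4.01%. Of 12 measured regulators of the unfolded protein response, Mbtps1, the protease that cleaves ATF6, rose by 0.24 (SE 0.06, adjusted p = 0.00876) and none fell, while the differences of Ern1 (0.23, adjusted p = 0.0539), Xbp1 (0.18, adjusted p = 0.269), Atf6 (0.09) and Atf4 (-0.12) did not pass. After leaving out K289R replicates 6 and 7, 4 regulators were higher, namely Mbtps1, Ern1 (0.23, adjusted p = 0.026), Creb3l3 (0.22, adjusted p = 0.0138) and Nfe2l1 (0.21, adjusted p = 0.0131), and none was lower. With the sets as random blocks none of the 12 passed, and Mbtps1 had an adjusted p of 0.051. Of 20 other ER folding factors 9 fell and 1 rose, with a median of -0.20. The prolyl isomerase Fkbp2 fell by 1.10 (SE 0.12), the oxidase Ero1b by 0.88 (SE 0.13), the BiP cofactor Manf by 0.85 (SE 0.16), the transmembrane thioredoxin Tmx1 by 0.61, Cnpy2 by 0.58 and the translocon J protein Sec63 by 0.36. Of 20 genes of ER-associated degradation, which returns misfolded proteins to the cytosol, 7 fell and 1 rose, with a median of -0.20. The channel component Derl2 fell by 0.82 (SE 0.13), Selenos by 0.70, Ubxn4 by 0.68, Selenok by 0.53 and Edem2 by 0.43, and Nploc4 rose by 0.40. Without K289R replicates 6 and 7, 8 folding factors and 7 degradation genes were lower, and 1 of each list was higher.

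Of 26 heat shock factors and co-chaperones of the cytosol, 8 fell and 5 rose, beside 10.8% and 8.37% of all genes. The HSP90 cofactor Ptges3 fell by 1.06 (SE 0.09, adjusted p = 7.41e-08) and Chordc1, another, fell by 1.01 (SE 0.17, adjusted p = 0.000244). The prefoldin subunits went both ways, since Pfdn6 fell by 0.74 (SE 0.10) and Pfdn5 rose by 0.73 (SE 0.08), and Fkbp8 rose by 0.43. Of 14 mitochondrial folding and import genes 5 fell, led by the import receptor Tomm20, which fell by 1.09 (SE 0.09, adjusted p = 2.34e-08), and none rose. When K289R replicates 6 and 7 were left out, 3 of them were lower and Tomm40 was higher (0.24, adjusted p = 0.0294), and with random blocks 3 were lower and none higher.

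Markers of other liver cells were set beside these changes. Of all genes, 10.8% fell and 8.37% rose, and a count of 1 in a list of 10 is near these shares. Of 10 Kupffer cell markers 3 fell (Vsig4 by 0.75, C1qc by 0.52 and Adgre1 by 0.42) and C1qa rose by 0.30, and their mean level was 7.30 to 7.56 in WT and 6.93 to 7.66 in K289R. With the sets as random blocks Vsig4 and C1qc passed, and Adgre1 (adjusted p = 0.125) and C1qa (adjusted p = 0.184) did not. Of 10 sinusoidal endothelial markers 1 fell and 2 rose, of 9 stellate cell markers 1 fell and 2 rose, and of 10 hepatocyte markers Apoa1 and Serpinc1 rose. None of 7 B and plasma cell markers and 5 cholangiocyte markers passed, and of 8 T and NK cell markers Cd4 rose. Not above the olfactory receptor level were 4 of the B and plasma cell, 2 of the cholangiocyte and 5 of the T and NK cell markers. These 3 lists therefore say little about those cells. In the fit lacking K289R replicates 6 and 7, 1 hepatocyte marker, 3 endothelial markers and 1 B and plasma cell marker were higher, beside 9.07% of all genes. The mean level of the B and plasma cell list, whose cells are rich in ER chaperones, was 5.10 to 5.30 in WT and 5.13 to 5.29 in K289R. That is close to the olfactory receptor level of 5.10. The part of cell composition in the chaperone changes was not tested.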

How the data were processed

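Livers of 7 WT and 7 K289R mice were measured on 1 array each. The authors summarised probe set intensities on a linear scale and deposited them as intensity values, and the submitters' processing notes name Affymetrix Expression Console as the program. Its version, its background correction and normalization and the build are not given in the sources used here. Precision is limited by the number of arrays, not by a read depth.

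From these, log2(intensity + 1) was computed. Of 35556 probe sets, 21456 had 1 gene symbol in the platform annotation, 2376 had several and 11724 none listed. Each of 19237 genes was represented by its probe set with the highest mean, which mattered for 1343 genes. limma 3.58.1 in R 4.3.3 was fitted to genotype alone with an intensity trend, 2-sided. Tested on simulated data over the same 19237 genes, brighter genes only, it recovered 28% of 50 genes changed by a fold of 1.2, 90% at 1.5, 96% at 2 and 100% at 3, with 7 false calls. Each gene was simulated independently, with no spread shared between the genes of an array, so these figures may not carry over to the real arrays. Genes above the olfactory receptor level had a mean over 5.10, the 95th percentile of 1044 olfactory receptor genes. Marker and pathway lists were matched through RefSeq synonyms.

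Members and lists were chosen with earlier results of these data known. Every ER member was named, the 12 largest differences outside the ER were given with values, and a set of well-known members (Hspa8, Hspa1a, Hsp90aa1, Hsph1, Hspd1, Hspa9, Dnajb1, the Cct genes) whatever their result. From a pathway list, at most 6 passing genes were named, and where none passed the 2 of smallest p. Cct8l1 was put in the remaining class after the files were seen, and Ern1, Atf4, Atf6, Xbp1, Hspb1, Hspb8, Dnajb2, Dnajc11, Dnajc19, Creb3l3, Nfe2l1, Tomm40 and the cell markers were picked with their values in view. Alternatives were other normalizations, no pseudocount, a filter on dim genes, other probe set and symbol rules, blocks, array weights, no trend, other thresholds and leaving out each array.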

Additional observations from a re-analysis of the deposited data

Results flagged for a closer look

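Among the groups of 7 arrays tested for a lone extreme value (98 groups of 49 members), 6 held one, and chance flags about 1 in 20 groups. In K289R, replicate 7 was far below the other arrays for Cct2 (8.14), Cct5 (7.67), Cct6a (8.47) and Dnajc22 (7.79), all in log2(intensity + 1). K289R replicate 5 was far above the others for Dnajb12 (8.27). In WT, replicate 3 was far below the others for Hspg2 (6.87).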

How the results depend on the processing

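Of the 34 called members, 14 passed in the same direction in all 30 alternative settings, and none reversed in any. The count of all genes called higher was 771 with the sets as random blocks, 363 with replicates 5 to 7 alone and 825 at an adjusted p of 0.01, and all genes called lower numbered 1378 with replicates 1 to 4 alone. All members called lower were 18 with random blocks, 18 with replicates 1 to 4 alone and 17 at 0.01, and all members called higher were 1 with replicates 5 to 7 alone. ER members called lower were 3 with random blocks, 3 without K289R replicates 6 and 7 and 3 at 0.01, and 3 to 7 when each array was left out in turn. ER members called higher were 2 of 20 with replicates 1 to 4 alone, with array weights, without K289R replicates 6 and 7, without these and WT replicate 6, and with the interquartile range as a covariate. Of all genes, 6.92% were higher with replicates 1 to 4 alone and 2041 of 19237 with array weights. In the other settings, in that order, 9.07%, 8.72% and 12.3% of all genes were higher. The last 3 settings were chosen after seeing the data. The ER members median log2 difference was -0.37 for the lumen alone, -0.07 without K289R replicates 6 and 7, -0.08 without replicate 7, -0.09 with the interquartile range as a covariate and -0.31 with replicates 5 to 7 alone. Cytosolic members called lower were 10 with replicates 1 to 4 alone and called higher 0 with replicates 5 to 7 alone. Mitochondrial members called higher were 0 with median centring, random blocks, replicates 5 to 7 alone and 0.01. Other members called lower were 0 with random blocks, either set alone and 0.01, and called higher 0 with replicates 5 to 7 alone. The cause of these moves was not tested, beside fewer arrays in the settings that leave some out.

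The labels do not say whether equal replicate numbers pair the arrays. Same-numbered deviations correlated between -0.27 and 0.54. For WT replicates 1 and 6 the most alike K289R array had the same number, and for the other WT replicates it had another. These values cannot show that no pairing exists. With the replicate block, 30 members were lower and 6 higher, ER members called lower were 9 and higher 1, with Hyou1 and Sdf2l1 gained, and 1661 genes were higher and 2177 lower.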
